A study of Mus musculus with 12 samples.

Results

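The mRNA response of the adult mouse hippocampus to a neuronal miR-9 sponge was taken from the 6 mice of the miR-9 experiment, out of 12 mice in all. The members were chosen by their labels alone: 3 mice had received GFP-miR-9sp and 3 had received GFP Ctrl. All were adult male C57BL/6 mice that carried an AAV5 vector with a synapsin promoter in the hippocampus, injected at an age of 10 weeks and dissected 10 weeks later. GFP Ctrl is the same kind of vector producing GFP with no sponge, and GFP-miR-9sp adds 8 imperfect miR-9 target sites to the GFP transcript. The synapsin promoter restricts the sponge to neurons, whereas the RNA came from whole hippocampal tissue with its glia, vessels and neighbouring structures, although the labels call the cell type hippocampal neurons. The GFP Ctrl mice were placed in the miR-9 experiment because their titles, unlike those of the other control mice, carry no 34. In such bulk tissue, fewer cells of a type and less RNA per cell cannot be told apart.

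miR-9 is a brain-enriched microRNA that is made from 3 loci in the mouse genome and is best known for its part in neural progenitors and in neuronal differentiation. A microRNA pairs through its seed with the 3′ UTR of an mRNA, which lowers the stability or the translation of that mRNA. A sponge offers many such sites on an abundant transcript and so draws the microRNA away from its own targets. Both arms of the hairpin can be loaded, and their seeds differ. The mature sequences below are shown because all site counts rest on them. They were read from RefSeq (GRCm38.p6), run 5′ to 3′, are identical for the 3 loci Mir9-1, Mir9-2 and Mir9-3, and carry the seed, bases 2 to 8, in capitals.
mmu-miR-9-5p: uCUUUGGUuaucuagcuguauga
mmu-miR-9-3p: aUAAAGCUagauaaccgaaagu

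Counting on 32850 RefSeq transcripts gave each mouse 17279620 to 24428477 reads, and 13439 transcripts with a mean of more than 10 scaled reads were tested. All values below are TMM-normalised reads, means carry the SD of 3 mice, and fold changes are log2 values of GFP-miR-9sp over GFP Ctrl with their SE from the quasi-likelihood test of edgeR. No transcript had an adjusted p under 0.05 (0% of those tested), and the smallest adjusted p was 0.968. At an unadjusted p under 0.05, 629 transcripts (4.68%) were counted, 329 (2.45%) higher and 300 (2.23%) lower. The 3 sponge mice lay above all 3 GFP Ctrl mice for 714 transcripts (5.31%) and below them for 675 (5.02%), together 10.3%. Cut-offs like those of the study, a ratio over 1.2 or under its inverse with an unadjusted p under 0.05 in a parametric test on scaled reads, were met by 64 higher (0.475%) and 137 lower (1.02%) transcripts. They were applied here to the 13486 transcripts with a mean above 10 scaled reads in GFP Ctrl, a choice of entries that need not be the study's own, so these are not the study's counts. DESeq2 gave an adjusted p under 0.05 for 2 transcripts, Hrk and Gfra2, with 172 higher and 119 lower at an unadjusted p under 0.05. The unadjusted p therefore serves below only to order and count transcripts, and every transcript named had an adjusted edgeR p of 0.968 or more with all 6 mice.

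The mice of a group were not alike. GFP-miR-9sp mouse 17 stood apart from the other sponge mice in 3 sets of transcripts. The 17 tested choroid plexus markers summed to 19547 reads in this mouse and to 1887 and 1520 in GFP-miR-9sp mice 23 and 9, against 6578, 16313 and 3057 in GFP Ctrl mice 16, 2 and 8. Immediate early genes were also high in it, and Onecut2, described first below, was at the level of the controls. Without GFP-miR-9sp mouse 17, 326 transcripts lay higher and 370 lower at an unadjusted p under 0.05, and 1 transcript had an adjusted p under 0.05.

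Mature miR-9 was not measured in these libraries, so the sequestration itself could not be checked in them. The entry for the precursor Mir9-2 (NR_029545) was tested and gave 18.41, 20.32 and 28.51 reads in GFP-miR-9sp mice 17, 23 and 9 and 22.97, 23.28 and 31.56 in GFP Ctrl mice 16, 2 and 8. The groups overlapped, at a log2 fold change of -0.19 (SE 0.25). The host transcript C130071C03Rik gave 96.52 ± 10.61 and 85.29 ± 15.13 reads, which also overlapped. Its gene spans that of Mir9-2, so reads on the Mir9-2 entry from the precursor and from RNA of the host gene cannot be told apart.

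Of 30 reported miR-9 targets, 22 were tested, with a median log2 fold change of -0.007 beside -0.001 over all 13439 transcripts. Of these, 10 had a positive and 12 a negative fold change. At an unadjusted p under 0.05, 1 was higher (4.55% beside 2.45% over all transcripts), and none had groups that did not overlap. Leaving out each mouse in turn moved the median between -0.032 and 0.028.

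Onecut2 (NM_194268), a homeodomain transcription factor, was the member of this list with an unadjusted p under 0.05. Its longest 3′ UTR in GENCODE M1, of 14356 bases, holds 14 matches to the miR-9-5p seed, 9 of them 8mers, the most 8mers of any gene tested. GFP-miR-9sp mice 17, 23 and 9 had 293.5, 622.7 and 655.7 reads, and GFP Ctrl mice 16, 2 and 8 had 349.4, 309.2 and 353.5. Mice 23 and 9 thus lay above every control, while mouse 17 lay below every control, and the spread among the sponge mice (523.9 ± 200.2) far exceeded that among the controls (337.4 ± 24.5). The log2 fold change was 0.63 (SE 0.24) with all 6 mice. Without GFP-miR-9sp mouse 17 it was 0.92 (SE 0.08), with an edgeR adjusted p of 0.0152, the one adjusted p under 0.05 in that comparison. When other mice were left out it was as low as 0.43. With the summed choroid plexus reads as a covariate it was 0.34 with all 6 mice, at an edgeR adjusted p of 0.884. The difference from the effect of the miR-34 sponge was 0.40 on the log2 scale (SE 0.34).

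Other targets were spread around 0. Map1b, a microtubule-associated protein and the most abundant of the list, had 49961, 60014 and 48317 reads in GFP-miR-9sp mice 17, 23 and 9, against 49240, 45388 and 48463 in GFP Ctrl mice 16, 2 and 8. One mouse, GFP-miR-9sp mouse 23, made most of its log2 fold change of 0.15 (SE 0.07). Rest, the repressor of neuronal genes in other cells, had 136.9 ± 5.831 reads in the sponge mice and 138.1 ± 7.423 in the controls. Hes1 (385.6 ± 8.912 and 391 ± 12.47) and Nr2e1 (560.2 ± 34.12 and 593 ± 14.17), which act in neural progenitors, differed between groups by less than the SD of the sponge mice. Ccnd1, a cyclin of the G1 phase, gave 2665, 2256 and 1817 reads against 1903, 2100 and 1687, at a log2 fold change of 0.24 (SE 0.12). Onecut1, related to Onecut2, stood near the limit of detection, at 11.25, 16.73 and 23.23 reads against 10.66, 21.42 and 10.52, and its groups overlapped. Foxp1, at 44.8 ± 6.692 reads in the sponge mice and 53.99 ± 7.945 in the controls, had the most negative fold change of the list, -0.28 (SE 0.18).

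**Figure D1:**
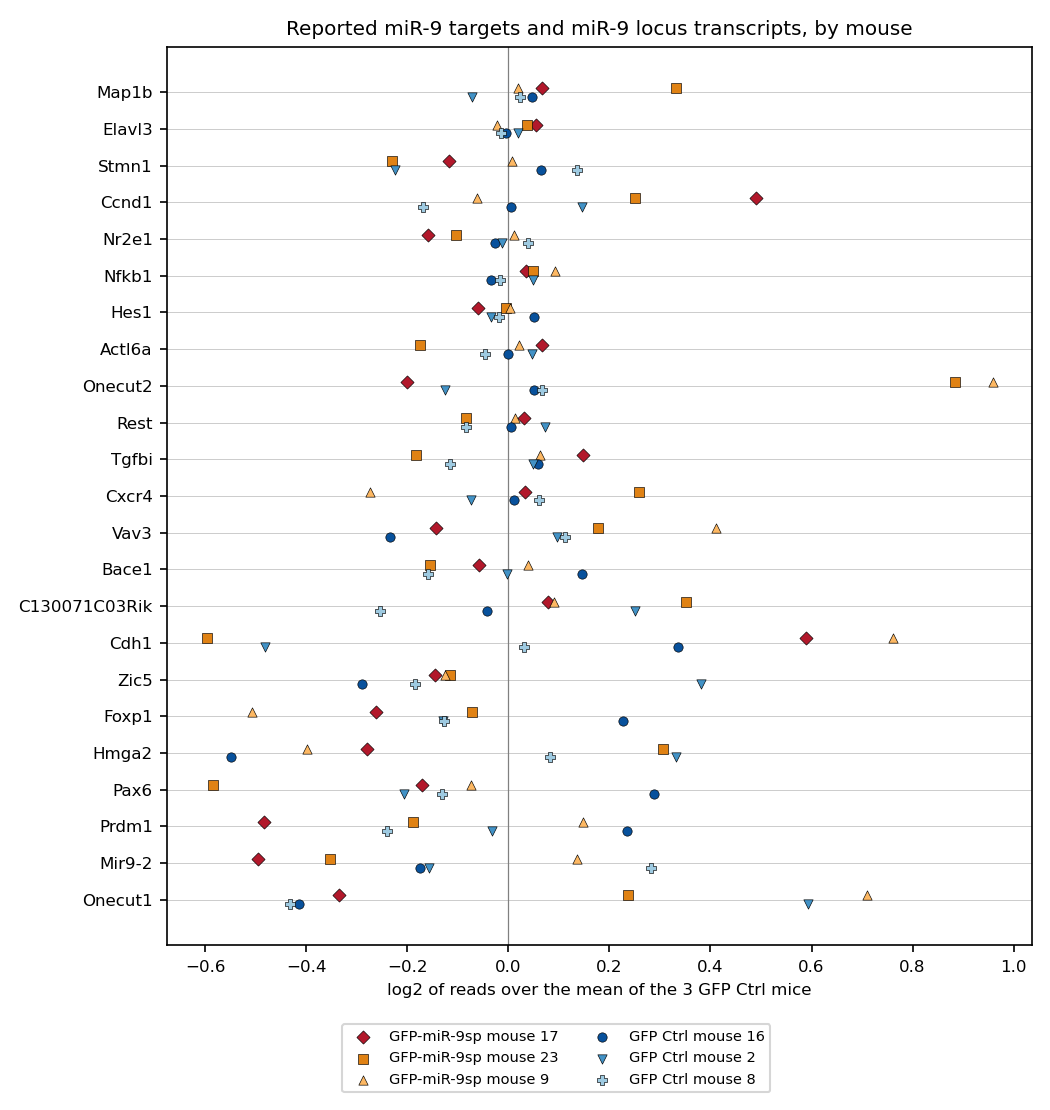
Reported miR-9 targets and miR-9 locus transcripts (vertical axis, ordered by reads) in each of the 6 mice, as the log2 ratio of TMM-normalised reads to the mean of the 3 GFP Ctrl mice (horizontal axis), 1 symbol per mouse. GFP-miR-9sp mice 23 and 9 stand to the right of all controls for Onecut2 while mouse 17 stands to their left, and the other targets scatter around 0.

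The transcripts were then sorted by miR-9-5p sites. A 7mer was taken as ACCAAAG, the complement of the seed, and an 8mer as ACCAAAGA, which contains the 7mer; both were read on the strand of the transcript. Of the tested transcripts, 12301 (91.5%) could be matched to a 3′ UTR. The median log2 fold change was -0.0021 for 10596 transcripts with no 7mer, 0.0076 for 1165 with a 7mer but no 8mer, 0.0098 for 509 with 1 8mer, and 0.0521 for 31 with 2 or more 8mers. The share with a positive fold change was 49%, 53.1%, 55.8% and 67.7% in the same order. With total counts only, which lowers the median of all transcripts to -0.022, these medians were -0.0237, -0.0142, -0.0119 and 0.0306, so that the first 3 were negative and their order was kept. The median SD of a single transcript among mice of a group was 0.094 on the log2 scale, which describes single transcripts and not medians over a class. The 3′ UTRs also differed, with a median length of 1047 bases without a 7mer and 3622 bases with 2 or more 8mers, and the part of length in the shift was not tested. The classes with 1 8mer and with a 7mer but no 8mer depended on single mice. Without GFP-miR-9sp mouse 23 their medians were 0.0004 and 0.0005, and without GFP-miR-9sp mouse 9 they were 0.0108 and 0.0132, so that their order turned in both. Without GFP-miR-9sp mouse 17 the median for 2 or more 8mers was 0.0391, and over the other mice left out it was between 0.0325 and 0.0626.

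By mouse, the median log2 ratio of the 31 transcripts to their GFP Ctrl mean was 0.0167, 0.0394 and 0.0178 in GFP-miR-9sp mice 17, 23 and 9. It was 0.0225, -0.0188 and -0.0398 in GFP Ctrl mice 16, 2 and 8, so that GFP Ctrl mouse 16 lay within the range of the sponge mice. For the seed of miR-9-3p the 522 transcripts with an 8mer (AGCTTTAA) had a median log2 fold change of 0.0044. The 31 transcripts with 2 or more miR-9-3p 8mers had a median of 0.0142, and 64.5% of them were positive, beside 67.7% of those with 2 or more miR-9-5p 8mers. Of the latter, 0 lay above and 2 below all GFP Ctrl mice (0% and 6.45%, beside 5.31% and 5.02% of all tested), and 2 of 31 is near that background. After Onecut2, the next by number of 8mers was Prtg, an immunoglobulin superfamily protein, with 3 8mers and 238.3, 266.5 and 213.3 reads against 201, 240.3 and 180.9, at a log2 fold change of 0.20 (SE 0.12). Elavl1, an RNA-binding protein with 2 8mers, was at 0.05 (SE 0.04), and Kcnj2, an inward rectifier potassium channel with 2, was at 0.11 (SE 0.08). These named transcripts were all positive and do not stand for the class, in which 21 of 31 were positive and the others negative. Among the negative ones, each with 2 8mers, Rreb1 was at -0.47 (SE 0.26), Prrx1 at -0.20 (SE 0.18) and Erg at -0.16 (SE 0.12). Mybpc3, also with 2, was at -0.50 (SE 0.31), with reads close to the limit of 10.

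**Figure D2:**
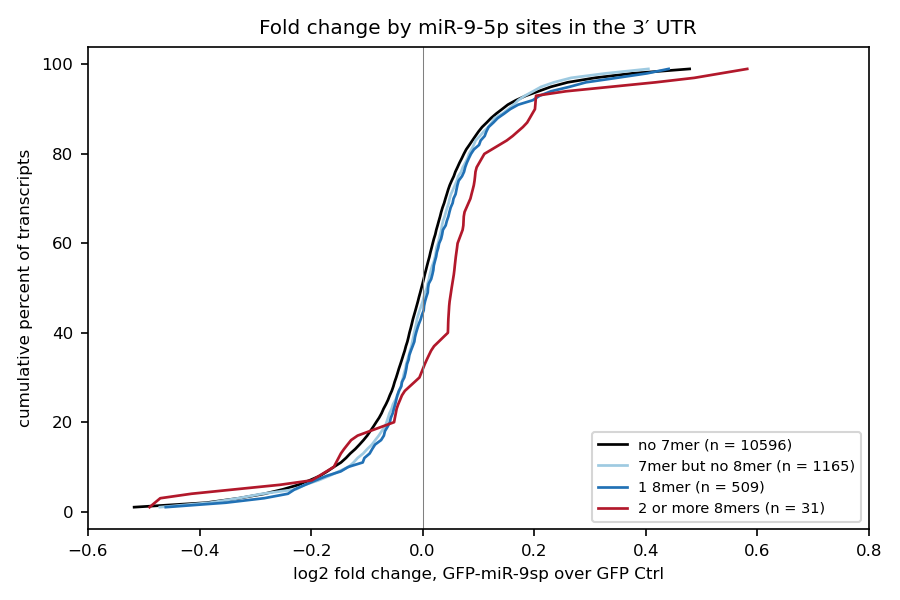
Cumulative percent of tested transcripts (vertical axis) by log2 fold change of GFP-miR-9sp over GFP Ctrl (horizontal axis), 1 line per class of miR-9-5p sites in the longest 3′ UTR, from percentiles 1 to 99. The lines nearly coincide, apart from that of the 31 transcripts with 2 or more 8mers, which runs to the right of the others through its middle part, with a median of 0.0521.

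Among transcripts with at least 1 8mer, 33 of 540 lay above all GFP Ctrl mice (6.11%, beside 5.31% of all tested) and 23 lay below them (4.26%, beside 5.02%). At an unadjusted p under 0.05, 20 of the 540 were higher and 5 lower, beside 2.45% and 2.23% of all tested. Of the 10596 with no 7mer, 245 were higher and 244 lower. The part of the sites or of 3′ UTR length in these counts was not tested. The 4 higher and the 4 lower with the smallest p each hold 1 8mer, shown here with the bases around it because these are the endogenous 3′ UTR sites of the transcripts that stood most clearly apart from the controls. Sequences are in the sense of the transcript, 5′ to 3′, with the 8mer in capitals, and coordinates of the 8mer are from GENCODE M1 on mm9.
Hapln4, chr8:72613238-72613245, plus strand: ggatgtcACCAAAGAgattccc
Ptpn14, chr1:191697411-191697418, plus strand: tgcatttACCAAAGAttctgcc
Itm2c, chr1:87804834-87804841, plus strand: gagtggaACCAAAGAaatgaag
Lgr6, chr1:136883158-136883165, minus strand: gacaactACCAAAGAcattgga
Igf2bp2, chr16:22060770-22060777, minus strand: ggagcaaACCAAAGAgcatccc
Lrguk, chr6:34083600-34083607, plus strand: actcatgACCAAAGAaagattc
Cd53, chr3:106562659-106562666, minus strand: ctatatgACCAAAGAtggcacc
Col15a1, chr4:47325293-47325300, plus strand: aagagaaACCAAAGAaaacata
All of them hold the 8mer because they were chosen for it, and the bases around it were not compared.

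Hapln4, a link protein of the perineuronal matrix, had 3336, 3699 and 3454 reads in GFP-miR-9sp mice 17, 23 and 9 and 2701, 3160 and 3074 in GFP Ctrl mice 16, 2 and 8. The groups did not overlap, at a log2 fold change of 0.23 (SE 0.06). Itm2c, a transmembrane protein of the BRI family and the most abundant of the 8, had 24050, 23843 and 22438 reads against 20482, 21911 and 21066, with no overlap and a log2 fold change of 0.15 (SE 0.04). Ptpn14, a protein tyrosine phosphatase, stood at 835 ± 72.24 against 712 ± 8.212 reads and Lgr6, a receptor for R-spondins, at 86.47 ± 5.616 against 63.39 ± 3.547. Of the lower transcripts, Cd53, a tetraspanin of leukocytes including microglia, stood at 223.1 ± 16.22 against 258.3 ± 7.202 reads. Col15a1, a basement membrane collagen, stood at 145.9 ± 6.912 against 171.8 ± 11.62. Igf2bp2, an RNA-binding protein, stood at 10.12 ± 0.5079 against 19.05 ± 4.437 reads, close to the limit of 10 reads.

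Across all transcripts, the smallest p values belonged to Hrk and Gfra2, which have no miR-9-5p 7mer in the annotated 3′ UTR. Hrk (NM_007545, chr5:118619773-118639487 on mm9), a BH3-only gene of the intrinsic apoptosis pathway in neurons, had 2653, 2858 and 2893 reads in GFP-miR-9sp mice 17, 23 and 9 and 3908, 3374 and 3527 in GFP Ctrl mice 16, 2 and 8. All sponge mice lay below all controls, at a log2 fold change of -0.36 (SE 0.06). Gfra2 (NM_008115, chr14:71289927-71379645 on mm9), the co-receptor for neurturin, had 1319, 1273 and 1334 reads against 1806, 1516 and 1769, with a log2 fold change of -0.37 (SE 0.06).

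DESeq2 gave these genes adjusted p values of 0.000704 for Hrk and 0.00702 for Gfra2 with the same fold changes, and edgeR without a filter on low counts gave 0.0144 and 0.015. Over all alternatives the adjusted p reached 1 for both, and their fold changes when each mouse was left out lay between -0.41 and -0.30 for Hrk and between -0.45 and -0.33 for Gfra2. Without GFP Ctrl mouse 2, Gfra2 had an edgeR adjusted p of 0.0384. The 10 other lower transcripts with the smallest p held neuronal genes such as Slitrk6, a synaptic adhesion protein (39.89, 32.27 and 32.73 against 53.32, 63.32 and 74.69 reads), Nsg2 (259.5 ± 15.2 against 323.1 ± 8.481) and Gnb4, a G protein subunit (390.5 ± 5.73 against 462.6 ± 14.4). They also held Mpeg1, a gene of macrophages and microglia, at 1032 ± 30.65 against 1189 ± 46.78 reads, and Chodl at 11.5 ± 1.692 against 27.81 ± 10.36 reads.

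Of the 12 higher transcripts with the smallest p, Tfrc (chr16:32609006-32632880 on mm9), the transferrin receptor, came first with 3441, 3865 and 3770 reads against 3145, 3194 and 3192, a log2 fold change of 0.22 (SE 0.05). Sstr3, a somatostatin receptor of neuronal cilia, had 1263, 1292 and 1268 reads against 1074, 1157 and 1089, at 0.20 (SE 0.05). The sponge mice of both genes lay above every control.

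Ppp1r9b, a spine scaffold that binds actin, stood at 43131 ± 988.9 against 38039 ± 2125 reads, Plch2, a phospholipase C, at 384 ± 14.4 against 292.9 ± 31.59, Srebf2, a regulator of cholesterol synthesis, at 6809 ± 207.5 against 6099 ± 91.96, and Igfbp4 at 2072 ± 108.2 against 1802 ± 62.62. The largest fold change of the 12 was that of Pdyn, the dynorphin precursor, at only 15.34, 21.51 and 10.56 reads against 4.922, 6.518 and 5.26, a log2 fold change of 1.47 (SE 0.37). Apart from Pdyn and Scgn, the ratios of those reported here were between 1.116 and 1.311, in genes of several kinds.

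**Figure D3:**
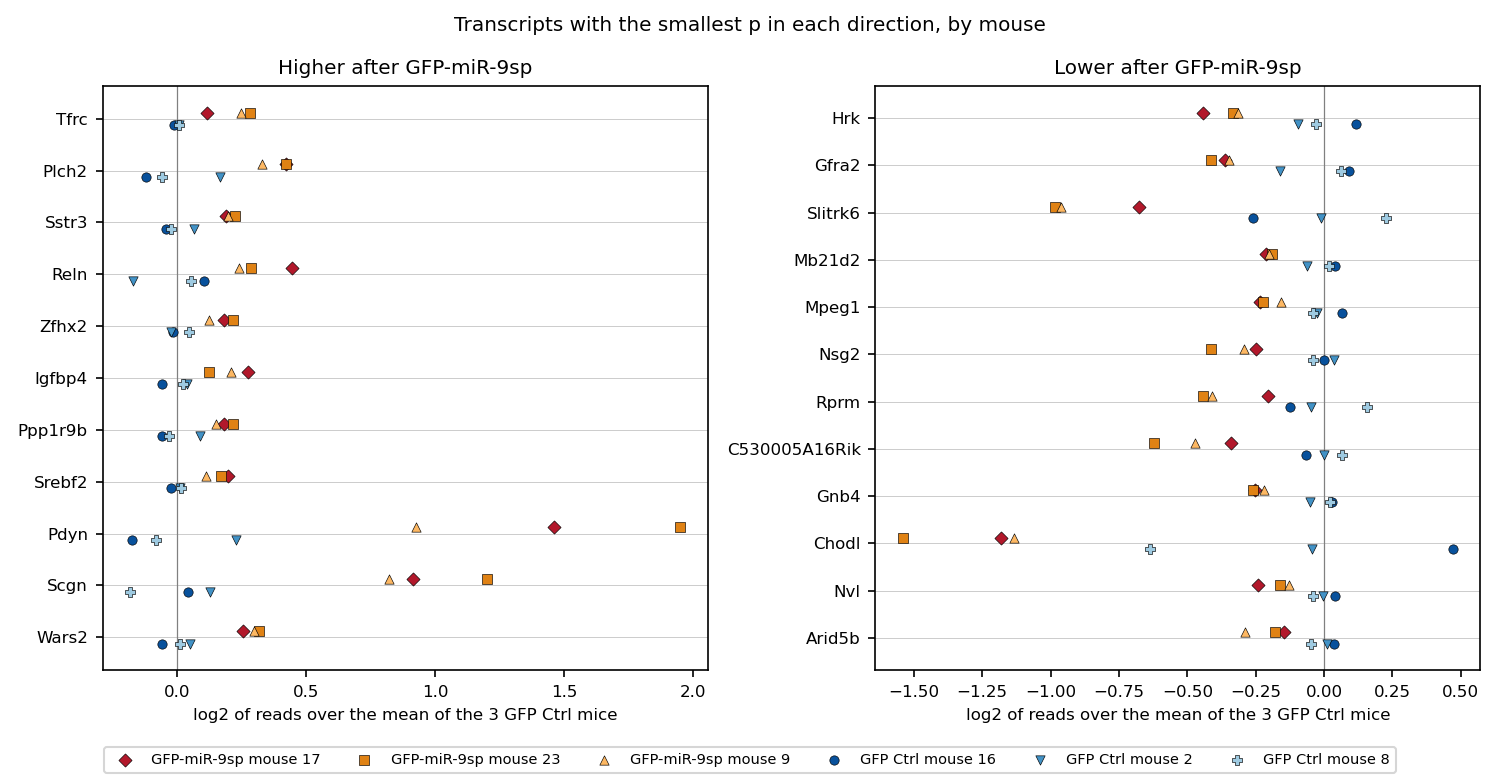
Higher (left, 11 shown) and lower (right, 12) transcripts with the smallest p among those whose groups do not overlap, as the log2 ratio of TMM-normalised reads to the mean of the 3 GFP Ctrl mice (horizontal axis), 1 symbol per mouse. These transcripts were chosen for that separation, and most sponge mice stand within 0.5 of the control mean, apart from Slitrk6, C530005A16Rik, Chodl, Pdyn and Scgn.

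Genes of known neuronal function were followed as lists. With total counts only, the medians given below turned negative for integrins and matrix (-0.001), the reelin pathway (-0.012), endocytosis (-0.013), GABA-A receptors (-0.013) and the Notch pathway (-0.006), while the other positive list medians stayed positive. Leaving out 1 mouse turned the sign of the median for cadherins and protocadherins (-0.060 to 0.022), synaptic adhesion (-0.027 to 0.010), integrins and matrix (-0.020 to 0.048), the reelin pathway (-0.004 to 0.033) and axon growth and guidance (-0.012 to 0.072). It did so too for interneuron (-0.023 to 0.017), astrocyte (-0.032 to 0.045) and endothelial and mural markers (-0.036 to 0.016), for GABA-A receptors (-0.035 to 0.029), the Notch pathway (-0.044 to 0.051), endocytosis (-0.010 to 0.016), the circadian clock (-0.039 to 0.009) and the phagocytosis list described below. The vesicle release list had 40 tested transcripts, 28 with a positive fold change and a median of 0.040. At an unadjusted p under 0.05 it held 7 higher (17.5% beside 2.45% over all transcripts) and 1 lower (2.5% beside 2.23%). The groups did not overlap for 6, all higher (15% beside 5.31%). The 7 higher became 2 without GFP Ctrl mouse 16, 3 without GFP-miR-9sp mouse 23 and 4 without GFP Ctrl mouse 2, and the median stayed between 0.018 and 0.069. Unc13a, which primes vesicles, had 11939, 13004 and 11662 reads in GFP-miR-9sp mice 17, 23 and 9 and 10882, 11139 and 10962 in GFP Ctrl mice 16, 2 and 8, a log2 fold change of 0.15 (SE 0.05). Syn2, a synapsin that tethers vesicles, had 15023, 16600 and 16113 reads against 13893, 14824 and 14440, also at 0.15 (SE 0.05). The other 5 higher were Sv2b, Slc17a7, Syt12, Cplx2 and Cplx1, of which the last 4 were named after their values were seen, to complete the count. Slc17a7, the vesicular glutamate transporter of most hippocampal principal cells, stood at 51117 ± 1937 against 46819 ± 2932 reads (0.13, SE 0.05). Slc17a6, the transporter that prevails in thalamus, was the lower member, at 914.1 ± 131.2 against 1138 ± 186.8 reads (-0.31, SE 0.12), while Vamp2, the vesicle SNARE, stood at 41391 ± 893.5 against 40779 ± 500.5.

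The medians of the principal cell marker lists were also positive, although the sums of each list overlapped between the groups. Dentate granule cell markers had 17 of 21 positive fold changes and a median of 0.117, with sums of 23361, 26688 and 20650 reads in GFP-miR-9sp mice 17, 23 and 9 and of 20905, 24853 and 19738 in GFP Ctrl mice 16, 2 and 8, which overlapped. Their single higher transcript at an unadjusted p under 0.05, Trpc6 (4.76% beside 2.45% over all transcripts), became 6 without GFP-miR-9sp mouse 9 and 8 without GFP Ctrl mouse 2. CA1 markers had a median of 0.050 over 16 transcripts (0.016 to 0.087 when each mouse was left out), with none at an unadjusted p under 0.05. Their sums were 55149, 57398 and 59451 reads against 54173, 54202 and 58012. CA2 and CA3 markers had a median of 0.048 over 18, with 4 higher (22.2% beside 2.45% over all transcripts) and 1 lower (5.56% beside 2.23%) at an unadjusted p under 0.05. The median was 0.014 to 0.10 when each mouse was left out, and the 4 higher became 2 without GFP Ctrl mouse 16 and 6 without GFP Ctrl mouse 2. The sums of the CA2 and CA3 markers were 68817, 81878 and 72255 reads against 62977, 73910 and 67878. Whether such marker differences play a part in the synaptic genes was not tested.

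Within the CA2 and CA3 list, Rgs14, a G protein regulator of CA2 pyramidal cells, had 2268, 2609 and 2121 reads against 1859, 2063 and 1940, a log2 fold change of 0.25 (SE 0.07). Lynx1, a modulator of nicotinic receptors, had 12657, 13181 and 12249 reads against 11101, 11730 and 11507, at 0.15 (SE 0.04). Necab2 stood at 2975 ± 234.4 against 2673 ± 101.1 reads, and Pcp4, a calmodulin-binding protein of the same region, was the lower one at 1987 ± 115.2 against 2325 ± 261.1. Among ionotropic glutamate receptors and their partners, whose median was 0.053 over 26 transcripts, Grin1, the obligatory NMDA receptor subunit, had 1185, 1137 and 1154 reads against 1006, 1067 and 982.6 (0.19, SE 0.05). That list had no other transcript with an unadjusted p under 0.05. Its median fell to 0.027 without GFP-miR-9sp mouse 23, 0.030 without GFP-miR-9sp mouse 9, 0.029 with more than 10 reads in every mouse and 0.030 when summed by symbol, and was 0.093 without GFP Ctrl mouse 2.

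GABA-A receptors had a median of 0.010 over 14 transcripts, with 1 higher and 1 lower at an unadjusted p under 0.05 (7.14% each, beside 2.45% and 2.23% over all transcripts). The higher one was Gabrd, the delta subunit of granule cells, at 608.9 ± 45.89 against 540.6 ± 33.04 reads (0.17, SE 0.07), and its groups overlapped. The lower one was Gabrr2, a rho subunit, which had 7.159, 14.34 and 10.56 reads against 25.43, 14.9 and 16.83 (-0.87, SE 0.34). Its groups did not overlap, at reads close to the limit of 10.

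Adhesion and guidance lists had medians near 0. Their counts at an unadjusted p under 0.05 stand beside 2.45% higher and 2.23% lower over all transcripts. Cadherins and protocadherins had a median of -0.024 over 40 transcripts with 1 higher (Fat2) and 1 lower (Pcdh7, 2255 ± 55.37 against 2512 ± 140.6 reads), 2.5% each. Synaptic adhesion had -0.004 over 56 with 2 and 2 (3.57% each), and integrins and matrix 0.020 over 41 with 2 and 1 (4.88% and 2.44%). Axon growth and guidance had 0.031 over 44 with 1 and 2 (2.27% and 4.55%). These counts moved with single mice. Synaptic adhesion had 1 higher and 9 lower without GFP Ctrl mouse 2 and 4 and 5 without GFP-miR-9sp mouse 23. Cadherins and protocadherins had 0 and 5 without GFP Ctrl mouse 2, and axon growth and guidance had 6 and 0 without GFP-miR-9sp mouse 9. Cntnap1, an axonal adhesion protein of the paranode, had 9216, 10156 and 9744 reads against 8455, 8778 and 8712, a log2 fold change of 0.17 (SE 0.04). Slitrk1, which promotes synapse formation, had 3309, 3520 and 3613 reads against 3878, 3790 and 3812, at -0.14 (SE 0.04). Reln, an extracellular signal secreted by interneurons of the adult hippocampus, was the single member of the reelin pathway list with an unadjusted p under 0.05. It was higher (6.67% of 15 transcripts, beside 2.45% over all), and the median of the list was 0.009. Nlgn1, a postsynaptic adhesion protein, gave 212.7 ± 23.86 and 212.3 ± 6.312 reads for its more abundant entry (NM_138666), a log2 fold change of 0.00 (SE 0.10). Interneuron markers had a median of -0.007 over 24 transcripts, with 2 higher (8.33% beside 2.45% over all transcripts), Reln and Scgn, and none lower at an unadjusted p under 0.05. With Gad1, named after its values were seen, 3 lay above all controls (12.5% beside 5.31% over all transcripts), while Sst stood at 4781 ± 465.9 against 4868 ± 168.8 reads. Notch pathway genes had a median of 0.015 over 23 with Hey1, a Notch effector, at 1452 ± 6.28 against 1332 ± 44.03 reads, and miRNA machinery had 0.035 over 18 with no transcript at an unadjusted p under 0.05.

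Cell death genes lay lower. Their median was -0.043 over 37 transcripts, 23 of them negative, with 4 lower (10.8% beside 2.23% over all transcripts) and 0 higher at an unadjusted p under 0.05 and 7 with no overlap, all lower (18.9% beside 5.02% over all transcripts). The 4 lower became 2 without GFP-miR-9sp mouse 9 or GFP Ctrl mouse 2, and the median stayed between -0.071 and -0.025. Hrk led them in reads among the 4. Gsdmd, which forms pores in pyroptosis, had 38.86, 46.61 and 47.51 reads against 61.52, 69.84 and 55.76, a log2 fold change of -0.50 (SE 0.17). Bid, a BH3-only gene that links death receptors to mitochondria, stood at 309 ± 10.79 against 354.7 ± 22.2 reads, and Dapk2 at 15.57 ± 4.548 against 27.17 ± 4.43. The list's summed reads were 19730, 19359 and 19625 in GFP-miR-9sp mice 17, 23 and 9 and 20916, 20152 and 20970 in GFP Ctrl mice 16, 2 and 8, and did not overlap. That separation rested on Hrk. The sums had means of 19571 and 20679 reads, and Hrk alone had 2801 and 3603, which made most of the difference. With the reads of Hrk taken out, the sums of the groups overlapped.

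Microglia markers also lay lower. Their median was -0.079 over 21 transcripts, 17 of them negative, and it stayed between -0.101 and -0.057 when each mouse was left out. Their sums of 19104, 19093 and 19943 reads lay below those of 20899, 20167 and 20213 in the controls. Fcer1g, an adaptor of Fc receptors, had 144.2, 154.2 and 179.5 reads against 194.4, 212.3 and 209.3 (-0.36, SE 0.10), and Csf1r, the receptor for CSF1, had 3022, 3049 and 3128 against 3329, 3189 and 3302 (-0.09, SE 0.04). The phagocytosis list, which shares genes with the microglia list, had a median of -0.032 over 34 transcripts, with 2 lower (5.88% beside 2.23% over all transcripts), Fcer1g and Elmo1. That median was -0.071 to 0.003 when each mouse was left out, so that its sign turned, and the 2 lower became 4 without GFP-miR-9sp mouse 9 or GFP Ctrl mouse 2 and 1 without GFP Ctrl mouse 16 or 8. The 2 lower of the microglia list (9.52%), Fcer1g and Csf1r, became 5 without GFP-miR-9sp mouse 9, 4 without GFP Ctrl mouse 2 and 1 without GFP Ctrl mouse 16 or 8. The part of microglia in the cell death and phagocytosis lists was not tested.

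The interferon response list had the lowest median, -0.169 over 18 transcripts, with 3 lower (16.7% beside 2.23% over all transcripts), B2m, H2-K1 and H2-D1, all of class I antigen presentation. B2m had 2058, 2027 and 2263 reads against 2684, 2324 and 2208, so that the groups overlapped and GFP Ctrl mouse 16 stood highest. H2-K1 had 670.9, 541.4 and 722.2 reads against 827.6, 706.8 and 780.6. The 3 lower became 0 without GFP-miR-9sp mouse 23 or GFP Ctrl mouse 16 and 1 without GFP-miR-9sp mouse 17. The list's median was -0.295 to -0.083 when each mouse was left out, and none of its transcripts had groups that did not overlap. H2-K1 and H2-D1 are near-identical members of a gene family, so that their reads may be shared.

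Oligodendrocyte markers had 15 of 19 negative fold changes and a median of -0.114, yet their sums of 24029, 26209 and 23451 reads overlapped those of 26882, 23785 and 27122 in the controls. Sox10, a transcription factor of that lineage, had 1297, 1490 and 1367 reads against 1579, 1453 and 1642 (-0.17, SE 0.06). It was the single lower one at an unadjusted p under 0.05 (5.26% beside 2.23% over all transcripts). That count became 6 without GFP-miR-9sp mouse 23, 7 without GFP Ctrl mouse 2 and 0 without GFP-miR-9sp mouse 9 or GFP Ctrl mouse 16 or 8. Astrocyte markers stood at a median of -0.005 over 19 transcripts with none at an unadjusted p under 0.05, and Glul, the glutamine synthetase of astrocytes, at 43677 ± 569.3 against 44432 ± 699.7 reads. Endothelial and mural markers stood at -0.012 over 16 transcripts with 2 lower (12.5% beside 2.23% over all transcripts) and none higher. These were Higd1b of pericytes, at 30.18 ± 4.406 against 43.59 ± 7.018 reads with no overlap, and Acta2, smooth muscle actin, at 348.3 ± 22.5 against 439.9 ± 96.31 reads. The 2 lower became 0 without GFP-miR-9sp mouse 23. Neurogenesis markers stood at -0.042 over 17 with 1 lower (5.88% beside 2.23% over all transcripts). This was Sox11, a factor of immature neurons, at 914.6 ± 111.2 against 1043 ± 11.22 reads.

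The counts of the remaining lists at an unadjusted p under 0.05 stand beside 2.45% higher and 2.23% lower over all transcripts. These lists were neuropeptides (-0.049 over 20 transcripts, 1 higher and 2 lower, 5% and 10%), glucocorticoid response (-0.022 over 18, 1 lower, 5.56%), circadian clock (-0.009 over 16, none), endocytosis (0.009 over 40, 2 higher and 1 lower, 5% and 2.5%) and Cajal-Retzius markers (0.060 over 5, 1 higher, Reln, 20%). Thalamus and habenula markers (-0.124 over 9, 1 lower, Slc17a6, 11.1%) and striatum and septum markers (-0.132 over 12, 1 higher, Pdyn, 8.33%), which mark tissue beside the hippocampus, overlapped in their sums. Adcyap1, the neuropeptide PACAP, had 277.2, 253.4 and 239.7 reads against 296.9, 317.5 and 313.5 (-0.27, SE 0.08).

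**Figure D4:**
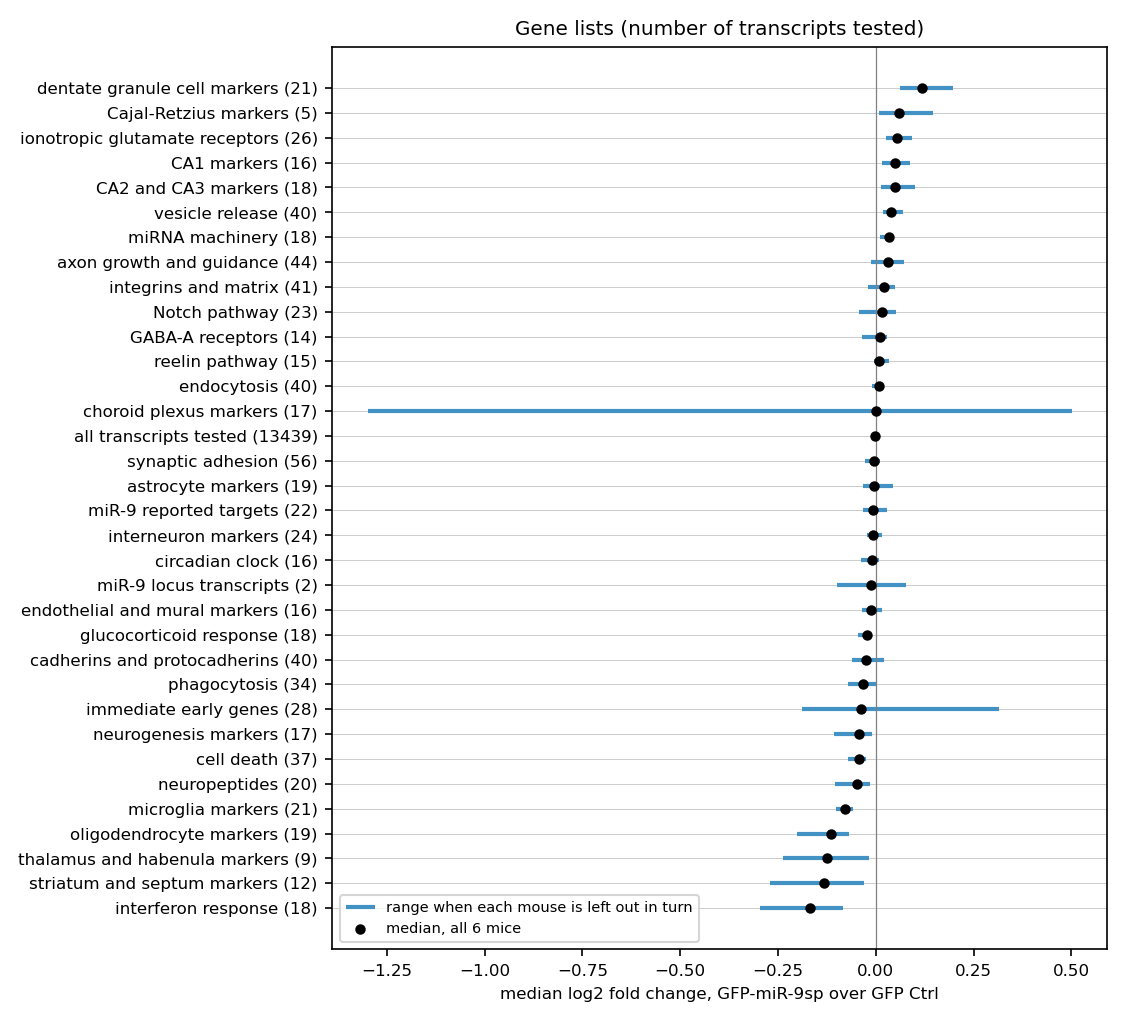
Median log2 fold change of GFP-miR-9sp over GFP Ctrl (horizontal axis, points) for each gene list and for all 13439 transcripts tested, with the number of tested transcripts in brackets and a bar for the range over the 6 fits that each omit 1 mouse. Most medians lie within 0.1 of 0, and the choroid plexus list ranges from -1.299 to 0.501 depending on the mouse left out.

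The largest differences in the 6 mice were between mice of the same group. Ttr, transthyretin of the choroid plexus, had 15294, 436.2 and 324.1 reads in GFP-miR-9sp mice 17, 23 and 9 and 4735, 12986 and 1627 in GFP Ctrl mice 16, 2 and 8. Clic6 (436.7, 41.83 and 20.06 against 160, 372.5 and 74.69), F5 and Prlr followed the same order of sponge mice, with mouse 17 high. The choroid plexus list had a median of -0.000 over 17 transcripts and of -1.299 without GFP-miR-9sp mouse 17, and its reads thus varied by more than 10-fold within the sponge group. With the summed choroid plexus reads as a covariate, 377 transcripts lay higher and 365 lower at an unadjusted p under 0.05.

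A different order held for activity-regulated genes. Fos, the prototype of the immediate early genes, had 793.6, 208 and 184.8 reads in the sponge mice and 179.6, 195.6 and 1135 in the controls, so that GFP-miR-9sp mouse 17 and GFP Ctrl mouse 8 stood far above the others. Nr4a1 had 2315, 982.4 and 1141 reads against 1125, 1040 and 3289, with the same mice high. Npas4, which responds to neuronal activity, had 688.3, 225.9 and 414.9 reads against 169, 192.8 and 630.1. The median over 28 immediate early transcripts was -0.039 and moved between -0.189 and 0.315 when each mouse was left out.

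A non-coding entry without a symbol, NR_046233, had 113923, 124738 and 278732 reads in the sponge mice and 292407, 94714 and 129117 in the controls. GFP-miR-9sp mouse 9 and GFP Ctrl mouse 16 were thus the high ones, 1 in each group. Neither the choroid plexus genes, nor the early genes, nor this entry separated the groups, whose means differed by less than the SD within either group.

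**Figure D5:**
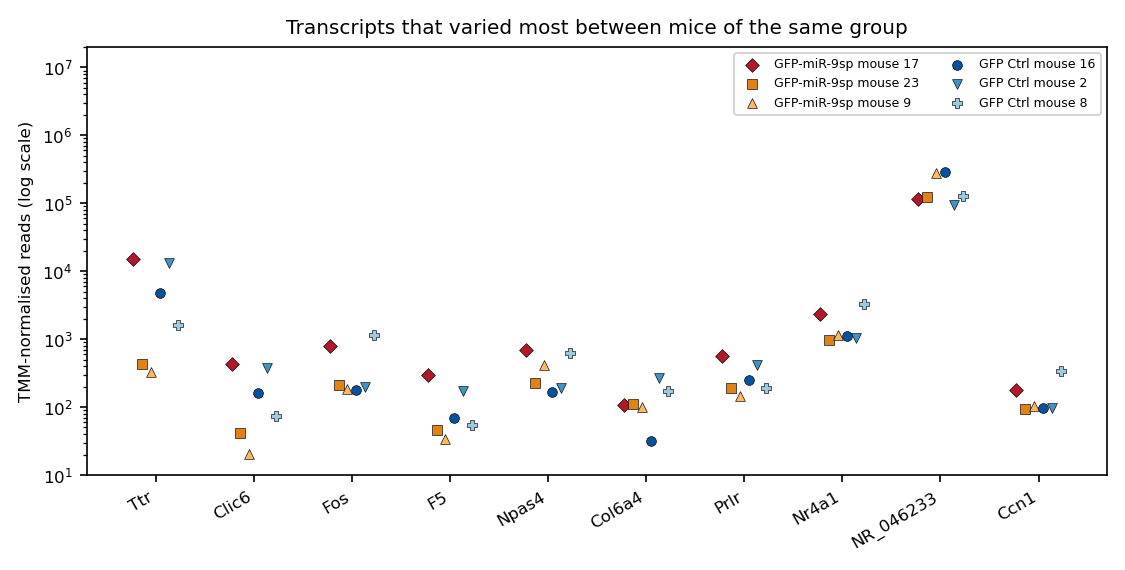
TMM-normalised reads (vertical axis, log scale) in each of the 6 mice for the 10 transcripts with the largest spread within groups among those with a mean of at least 100 reads. The mice that are high differ between Ttr (GFP-miR-9sp mouse 17 and GFP Ctrl mouse 2), Fos (GFP-miR-9sp mouse 17 and GFP Ctrl mouse 8) and NR_046233 (GFP-miR-9sp mouse 9 and GFP Ctrl mouse 16).

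Entries of the same gene were compared by direction and unadjusted p only, and the difference between them was not tested. Over all transcripts 2.45% were higher and 2.23% lower at an unadjusted p under 0.05, so few genes were likely to have both. The count below therefore does not show how often entries of a gene differed. Of 414 genes with 2 or more tested entries, 1 had entries in opposite directions, both at an unadjusted p under 0.05. This was Aopep, an aminopeptidase, whose coding entry NM_001289926 had 342 ± 23.11 against 280.2 ± 27.38 reads and whose non-coding entry NR_110521 had 27.23 ± 5.631 against 38.6 ± 6.763. How reads shared by such entries were divided is not given in the sources used here.

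To ask whether differences set the miR-9 sponge apart, its effect was compared with that of the miR-34 sponge against its own 3 GFP Ctrl mice, in 1 model of all 12 mice. Of 13193 transcripts tested, 0 had an adjusted p under 0.05 for the difference of the effects (0%), and 814 had an unadjusted p under 0.05 (6.17%), 451 higher and 363 lower for the miR-9 sponge. DESeq2 gave 9 transcripts with an adjusted p under 0.05. Rgs14 had the smallest p of the named transcripts, with a log2 difference of 0.60 (SE 0.10, adjusted p = 0.386 by edgeR and 0.000677 by DESeq2), from 0.25 after GFP-miR-9sp and -0.34 after GFP-miR-34sp. Hapln4 had a difference of 0.54 (SE 0.11) from 0.23 and -0.30, and Lynx1 one of 0.34 (SE 0.07) from 0.15 and -0.19.

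For these 3 genes the GFP-miR-34sp value was thus as large as or larger than that of GFP-miR-9sp and of opposite sign, so that the difference does not rest on the miR-9 sponge alone. For Gfra2 the difference was -0.54 (SE 0.12, adjusted p = 0.623 by edgeR and 0.015 by DESeq2), from -0.37 and 0.17. For Hrk it was -0.39 (SE 0.12), from -0.36 and 0.03, and it was not among the 9. The labels of the counts contain totRNA in the miR-9 experiment only, and that difference between the experiments and the sponges cannot be told apart in this comparison.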

How the data were processed

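RNA from dissected hippocampus of 12 mice was sequenced as 50 bp single end reads, and the 6 mice of the miR-9 experiment were analysed, with the 6 of the miR-34 experiment for 1 comparison. The deposited values are raw counts of reads that the authors assigned to each RefSeq transcript. The deposited tables also give the length of each transcript in bases, another kind of value. Per the labels' processing notes the reads were mapped with STAR to mm10, whereas the methods name mm9, and the counting tool is not given in the sources used here. The methods describe poly-A enrichment, while the count columns of this experiment are labelled totRNA. No coordinate of the files was used. Symbols came from RefSeq (GRCm38.p6) for 98.7% of 32850 entries.

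Transcripts with a mean above 10 scaled reads over the 6 mice were compared by quasi-likelihood F-tests (edgeR 4.0.16 in R 4.3.3) with TMM normalization and Benjamini-Hochberg adjustment, and the code was tested on simulated data. The study's own test on scaled reads is an approximation with 3 mice per group and was an alternative, as was DESeq2 1.42.0. With 3 mice against 3, an exact two-sided permutation p cannot go below 0.1. The biological coefficient of variation was 0.0613. A floor of 3 reads was 1.23e-05% to 1.74e-05% of the reads of a mouse and covers counting error only. Each pair of mice in a group differed by 2 to 3.59 times the counting variance, more than sampling noise, and the mice were counted separately as labelled.

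Seed matches and coordinates came from GENCODE M1 on mm9, with the longest 3′ UTR of each gene. The mice, the 33 gene lists and the tests were chosen with earlier results of these data known. Named transcripts were the 12 higher and 12 lower with the smallest p and no overlap, in each list up to 4 with an unadjusted p under 0.05 and the most abundant per length, every reported target, the 4 higher and 4 lower with an 8mer and the smallest p, the 10 with the largest spread within groups, genes with opposed entries, and Reln, Nlgn1 and Ttr, of which 2 are not reported here. Prtg, Elavl1, Kcnj2, Rreb1, Prrx1, Erg and Mybpc3, from the class with 2 or more 8mers, were named outside these rules. Lists are described by counts and medians only. Tables and figures were made with Python 3.11.15, numpy 2.4.6, pandas 2.3.3 and matplotlib 3.10.9.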

Additional observations from a re-analysis of the deposited data

How the results depend on the processing

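No paired analysis was possible because the GFP-miR-9sp and GFP Ctrl mice share no number in their labels. The count of transcripts with an adjusted p under 0.05 was 0, and it was 2 with DESeq2 and 2 with no filter on low counts (Hrk and Gfra2 in each). Leaving out each mouse gave 0 to 1 (Onecut2 without GFP-miR-9sp mouse 17, Gfra2 without GFP Ctrl mouse 2). The 329 higher and 300 lower transcripts at an unadjusted p under 0.05 became 195 and 495 with total counts only, which shifted the median of all transcripts to -0.022, 505 higher with no filter, 172 and 119 with DESeq2, and 64 and 137 by cut-offs like the study's. Leaving out each mouse gave 171 to 451 higher and 195 to 382 lower, with 171 and 195 without GFP Ctrl mouse 16. Groups that did not overlap, 714 higher and 675 lower, became 442 and 1050 with total counts only, and 1182 to 1507 and 1139 to 1513 when a mouse was left out, where fewer mice make overlap less likely. For the difference between the sponges, 0 adjusted calls became 9 with DESeq2, 43 with no filter and 0 to 1 when a mouse was left out (Nbl1 without GFP Ctrl mouse 2), and the 363 lower became 565 with total counts only, 604 with no filter and 201 with DESeq2. Of 80 named transcripts under 14 alternatives, 1094 values kept direction and side of the threshold, 6 passed it, and 14 turned sign. The sign turned for Aopep (NR_110521, 0.21 when summed by symbol), for Nlgn1 (-0.02 with total counts, -0.00 with more than 10 reads in every mouse and in 1 model of 12 mice, -0.03 with the choroid plexus covariate, -0.09 to 0.05 when a mouse was left out), for Onecut1 (-0.04 to 0.68, negative without GFP-miR-9sp mouse 9), for Rest (0.01 with the covariate, and -0.05 to 0.02) and for Ttr (-4.09 without GFP-miR-9sp mouse 17 to 0.75 without GFP Ctrl mouse 2), the ranges being those over mice left out. These 14 turns are those of the 80 transcripts alone, and other transcripts named above also turned sign. Fos went from -0.30 to 1.09 and Nr4a1 from -0.28 to 0.46 without GFP Ctrl mouse 8. Clic6 went from -0.26 to 0.50 without GFP Ctrl mouse 2, and F5 from 0.39 to -1.30 without GFP-miR-9sp mouse 17. No transcript whose sign turned was called in the comparison itself. Among 33 lists, 453 medians moved by less than the spread between mice and 9 by more. The causes of these changes were not tested. Depth limits transcripts near 10 reads most, such as Chodl, Igf2bp2 and Onecut1.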
